A study of Mus musculus with 16 samples.

Results

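Polysomal RNA was set against unfractionated RNA in livers that lacked Gcn2 in all cells (Gcn2-/-), to see which mRNAs were rich or poor in polysomes without this kinase. The comparison used 8 of the study's 16 arrays: 4 arrays titled as polysome RNA and 4 titled as unfractionated RNA, all from knockout mice. The livers came from mice aged 3 to 6 months and were perfused in a single pass with medium that held all amino acids or lacked methionine. Each fraction had 2 arrays per medium, and each array held RNA pooled from 2 livers. The other 8 arrays came from wild-type littermates (Gcn2+/+) handled the same way and served to test whether a pattern differed between genotypes. They also entered the mean signal over all 16 arrays, by which probe sets and genes to test were chosen. The labels do not say that the duplicate pools came from separate perfusion days, so p-values measure the spread between these pools.

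An mRNA that carries several ribosomes sediments far down a sucrose gradient, so its share in the polysome fraction reflects how many of its copies are being translated and by how many ribosomes. Gcn2 is an eIF2 kinase that is activated when amino acids run short; phosphorylated eIF2 lowers general initiation and favours some mRNAs with upstream reading frames. The mRNAs of ribosomal proteins and many translation factors begin with a terminal oligopyrimidine (TOP) stretch, through which mTORC1 signalling controls their entry into polysomes. Nuclear and untranslated noncoding RNAs are usually kept out of polysomes.

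The largest deficit in polysomes by the brightest probe set was that of Rpl41, which encodes the smallest protein of the large ribosomal subunit (-4.17, and -1.77 as the mean of its probe sets). It was followed by the snoRNA host RNAs Gas5, Snhg8 and Snhg6, the mitochondrially encoded ND5 and the nuclear RNA Malat1; with the mean of probe sets Snhg8 (-3.51), Snhg6 (-3.31) and ND5 (-3.18) were lowest of these, and Gas5 stood at -1.95 and Malat1 at -1.91. Among ribosomal protein mRNAs, other TOP mRNAs, heat shock mRNAs and several lists of hepatocyte metabolism, more than 1 in 3 members were lower in polysomes. The mRNAs of mitochondrial ribosomal proteins, of small cytosolic proteins and of several upstream-reading-frame genes lay above the median of all genes. The 2 largest single excesses by the brightest probe set were those of Mfhas1, a signalling protein (1.48), and Kmt2d, a histone methyltransferase (1.45). As the mean of probe sets Mfhas1 stood at 1.425 and Kmt2d at 0.65. Kmt2d was then below Gm34344 (1.39), 1110002L01Rik (1.34) and Onecut2 (1.28).

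Of 10916 genes tested, 2042 were called at an adjusted p under 0.05, which is 18.7%. Of these, 998 (9.14% of tested genes) were higher and 1044 (9.56%) were lower in polysome RNA. The test was limma's moderated test on log2(signal + 16) with methionine supply as a term and Benjamini-Hochberg adjustment over all tested genes. A fold change is polysome minus unfractionated on that scale, with its standard error (SE); the added 16 shrinks the fold changes of dim genes. Every array had been scaled to the same trimmed mean, so a fold change is relative to the other RNAs of the same fraction and says nothing of the total amount of RNA in polysomes. The median fold change of all tested genes was 0.02.

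The arrays within a fraction resembled each other more than arrays of the other fraction. Log2 values of duplicate arrays correlated at 0.968 to 0.971 across tested genes, and those of arrays from different fractions at 0.943 to 0.964. The targeted gene, Eif2ak4 (Gcn2), gave signals of 21.2 to 52.9 in the 8 knockout arrays and 62.9 to 104 in the 8 wild-type arrays, with no overlap. The position of this probe set relative to the deleted part is not known here, and a dimmer probe set of the gene overlapped between genotypes. The hepatocyte markers were bright, with Alb at 14857 to 20352 in the knockout arrays. The 3'-to-5' signal ratio of the actin control, a measure of RNA integrity, was 1.32 to 1.45 in polysome and 1.32 to 1.48 in unfractionated arrays.

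Since TOP mRNAs are defined by their first bases, the start of each promoter in RefSeq (GRCm38.p6) was searched by rule. The rule asked for a C at the annotated start followed by at least 4 C or T on the transcribed strand, and it was met by 2.51% of 32851 promoters. It was met at 1 or more annotated starts by 9 of the 38 cytosolic ribosomal protein genes with a promoter entry (23.7%), by 3 of 15 other TOP genes (20%) and by 5 of 16 long noncoding and snoRNA host genes (31.2%), against 2.95% of the 8903 tested genes with an entry. The 10 genes of these lists with the largest falls that met the rule are shown from 20 bases before the annotated start to 20 bases from it, 5' to 3', with the pyrimidine stretch that begins at the start in capitals.
Gas5 (chr1:161035146-161035185, plus strand): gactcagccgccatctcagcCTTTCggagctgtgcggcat
Snhg8 (chr3:123508317-123508356, minus strand): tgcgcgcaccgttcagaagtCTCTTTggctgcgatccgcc
Oip5os1 (chr2:119594276-119594315, plus strand): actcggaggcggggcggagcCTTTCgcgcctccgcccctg
Rps18 (chr17:33955646-33955685, minus strand): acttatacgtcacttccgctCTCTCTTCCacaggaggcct
Eif3f (chr7:108934395-108934434, plus strand): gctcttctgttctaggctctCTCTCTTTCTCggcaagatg
Nap1l1 (chr10:111473207-111473246, plus strand): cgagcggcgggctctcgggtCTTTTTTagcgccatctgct
Jpx (chrX:103493538-103493577, plus strand): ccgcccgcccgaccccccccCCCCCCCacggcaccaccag
Rplp2 (chr7:141447631-141447670, plus strand): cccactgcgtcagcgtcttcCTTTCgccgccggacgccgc
Rps6 (chr4:86857348-86857387, minus strand): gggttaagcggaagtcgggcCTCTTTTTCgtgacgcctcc
Rpl35 (chr2:39005112-39005151, minus strand): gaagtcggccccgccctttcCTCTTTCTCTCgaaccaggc
In the Jpx window the run of C continues upstream of the annotated start.

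Annotated starts can lie some bases from the start used in liver, so a wider window was also read, an alternative chosen after seeing the data. A C followed by at least 6 C or T, lying wholly within the 40 bases shown, was present in 23 of 38 ribosomal protein genes (60.5%) and 7 of 15 other TOP genes (46.7%). Among long noncoding and snoRNA host genes 5 of 16 (31.25%) had such a stretch. The share was 22.9% of all tested genes and 20% of mitochondrial ribosomal protein genes. Beyond the ribosomal protein, TOP and noncoding lists, genes that met the start rule lay near the background. The 246 such genes that met the start rule had a median fold change of 0.02, with 8.54% higher and 7.32% lower, beside 9.5% and 9.27% of the 8588 that did not.

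Cytosolic ribosomal proteins are the structural subunits of the ribosome. Of 80 listed genes, 43 were tested; 27 shared a probe set with another symbol, and 2 were too dim. Among the tested, 36 were lower and 0 higher, beside 9.56% and 9.14% of all genes, and the median fold change was -0.78 (lowest -4.17, highest 0.18). The 4 polysome arrays lay wholly below the 4 unfractionated arrays for 35 of them, beside 10.5% of all genes.

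Signals are given in the order replicate 1 and 2 with methionine, then replicate 1 and 2 without it, as in the plot of signal per array. Rpl41 gave unfractionated signals of 11471, 11034, 10998 and 10458 and polysome signals of 637, 644, 507 and 597. The groups lay 18.4-fold apart in mean signal (log2 fold change -4.17, SE 0.11, adjusted p 2.23e-10). Its second bright probe set gave -2.38; both may also bind related sequences, as their names mark. Rpsa, the laminin-receptor protein of the small subunit, had 7342, 6855, 6998 and 6224 in unfractionated and 1473, 1706, 1762 and 1683 in polysome RNA (-2.04, SE 0.11). Rplp0, which anchors the ribosomal stalk, had 9678, 10491, 10310 and 9341 against 2586, 2711, 3025 and 3327 (-1.77, SE 0.10). For these genes every polysome array was below every unfractionated one, in both media, which for Rpl41 the naming rule required. Rps19, a small-subunit protein, followed at -1.71 (SE 0.15). Ribosomal protein genes have many near-identical copies in the genome, whose RNA these probe sets could also read.

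**Figure D1:**
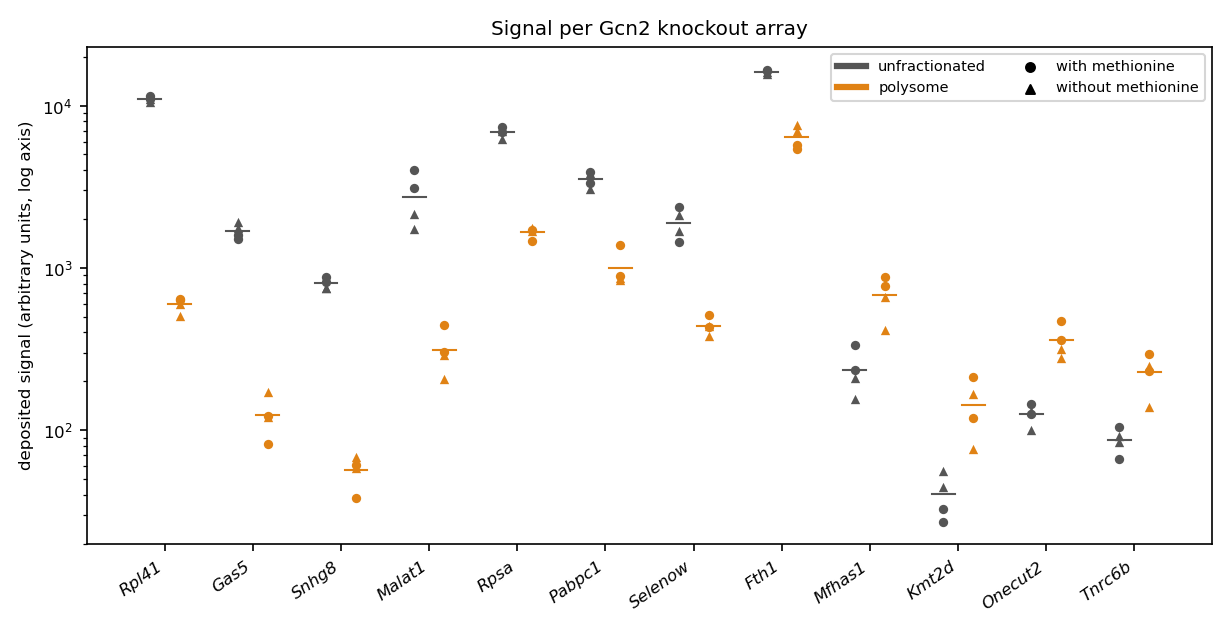
Deposited signal (log axis) of 12 genes in each of the 8 knockout arrays; grey is unfractionated and orange polysome RNA, circles are arrays with and triangles without methionine, and bars are means of 4 arrays. Rpl41 sits between 10458 and 11471 in unfractionated and between 507 and 644 in polysome RNA. The 4 genes at the right lie higher in polysome RNA in all arrays, as the rule that chose them required.

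Other TOP mRNAs encode translation factors and their partners. Of 21 tested, 16 were lower and 0 higher, with a median of -0.87. Pabpc1, the cytoplasmic poly(A)-binding protein, had unfractionated signals of 3312, 3923, 3068 and 3850 and polysome signals of 896, 1388, 836 and 871 (-1.83, SE 0.15, adjusted p 1.97e-05). Eef1b2, an exchange factor of elongation factor 1, stood at -1.63 (SE 0.14), Eif3h, an eIF3 subunit, at -1.22 (SE 0.11) and Npm1, a nucleolar chaperone, at -1.20 (SE 0.15). Initiation factors outside that list were split: 7 of 26 were lower (26.9%) and 6 higher (23.1%), beside 9.56% and 9.14% of all genes. The largest falls there were Eif3m (-1.04, SE 0.12, and -0.13 by its other probe set), Eif3c (-0.69, SE 0.18) and Eif5b (-0.67, SE 0.14), which join the subunits or assemble the scanning complex.

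Ribosome biogenesis mRNAs went partly the same way, with 14 of 39 lower and 1 higher (median -0.28). Ncl, nucleolin, had 2793, 2200, 1991 and 1957 in unfractionated and 904, 869, 663 and 697 in polysome RNA (-1.49, SE 0.12). The box C/D snoRNP proteins Nop58 (-1.39, SE 0.25) and Nop56 (-1.33, SE 0.16) and the small-subunit assembly factor Nop14 (-1.29, SE 0.15) fell as well.

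Long noncoding and snoRNA host RNAs showed the lowest median of the lists with at least 15 tested members, -1.07, with 12 of 19 lower and 0 higher (median -0.61 with 64 added in place of 16). Host RNAs carry snoRNAs in their introns, and several begin with a TOP stretch. Gas5 gave 1593, 1508, 1769 and 1906 in unfractionated and 82.4, 122, 121 and 171 in polysome RNA (-3.64, SE 0.16, adjusted p 6.66e-08), a 13.6-fold gap between means. Snhg8 gave 817, 883, 750 and 755 against 38.4, 61, 68.5 and 58.6 (-3.51, SE 0.16). Snhg6 stood at -3.31 (SE 0.24). All 3 were far below their unfractionated level in every pool, and the rule that chose them required groups without overlap.

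Malat1, a nuclear-speckle RNA, gave 4013, 3111, 1735 and 2136 in unfractionated and 304, 442, 206 and 289 in polysome RNA (-3.06, SE 0.17); its 7 probe sets ranged from -3.06 to -0.95. Neat1, the scaffold of paraspeckles, stood at -2.57 (SE 0.28), but its other, dimmer probe set gave 0.13. The list was chosen for well-known noncoding RNAs, and the 233 other genes that RefSeq calls long noncoding had a median of -0.04. Of these, 14 (6.01%) were lower and 5 (2.15%) higher, beside 9.56% and 9.14% of all genes. At the top of the list's range was Tug1, at 0.63 and not called; it is named after its value was seen. ND5, a complex I subunit made on mitochondrial ribosomes, was the 1 mitochondrially encoded transcript that could be tested. It gave 2061, 2721, 3109 and 2650 in unfractionated against 328, 221, 282 and 277 in polysome RNA (-3.18, SE 0.15).

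The other largest falls belonged to protein-coding genes of varied function and 1 noncoding RNA. Bola3, an iron-sulfur cluster factor of mitochondria, gave 2294, 2067, 2281 and 2063 against 289, 353, 504 and 570 (-2.35, SE 0.16), though its dimmer probe set gave -0.98. Selenow, a small selenoprotein, gave 2356, 1437, 2109 and 1693 against 433, 511, 380 and 437 (-2.05, SE 0.17). Spop, a substrate adaptor of a ubiquitin ligase, gave 825, 1037, 930 and 926 against 227, 158, 253 and 177 (-2.12, SE 0.16). No array of either fraction overlapped for these 3 genes, as the rule that chose them required. Smim27, a small membrane protein (-2.18, SE 0.36), and 2410006H16Rik, a long noncoding RNA (-2.06, SE 0.22), completed the 12 largest falls. Selenoproteins as a list did not go one way: 2 of 19 (10.5%) were lower and 4 (21.1%) higher, with a median of 0.01. Of all genes 9.56% were lower and 9.14% higher. Dio1, which activates thyroid hormone, was among the higher (0.62, SE 0.17), and Gpx3 was the other lower member (-0.81, SE 0.25).

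Iron genes include mRNAs with an iron-responsive element near their start, through which iron-regulatory proteins block translation. Of 21 tested, 7 were lower and 1 higher (median -0.37). The 2 largest falls were such mRNAs: Slc40a1, the iron exporter ferroportin (-1.49, SE 0.17), and Fth1, the ferritin heavy chain. The element was not searched for in the list, and its part in these falls was not tested. Fth1 gave 16243, 16655, 15744 and 16031 in unfractionated and 5740, 5385, 7640 and 7013 in polysome RNA (-1.34, SE 0.10). Alas1, the housekeeping enzyme of heme synthesis, fell too (-0.99, SE 0.26), with overlapping arrays.

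Chaperone and proteasome mRNAs formed a further group. Of 21 heat shock mRNAs, 15 were lower and 0 higher (median -0.64); examples are Hspa4, a nucleotide exchange factor (-1.08, SE 0.18), Dnaja1, an Hsp70 partner (-0.96, SE 0.13), and Cct2, a subunit of the ring chaperonin (-0.81, SE 0.12). Of 34 proteasome mRNAs, 18 were lower and 0 higher (median -0.40). Psmd14, the deubiquitinase of the lid, gave 2917, 2416, 2816 and 2668 against 1097, 1465, 1249 and 1197 (-1.11, SE 0.13), and Psmd1 stood at -1.05 (SE 0.19). In ER chaperones 6 of 25 were lower and 1 higher, with Hspa5 (BiP) at -0.81 (SE 0.13) and its probe sets at -0.88 to -0.03.

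Several lists of hepatocyte function had lower members, by smaller amounts, and others did not. Fatty acid and triglyceride synthesis had 0 of 22 lower and 0 higher (median 0.04), and acute phase proteins 1 of 13 lower and 0 higher (median -0.10). Cytochrome P450 mRNAs had 19 of 36 lower and 1 higher (median -0.45), with Cyp2a12 giving 5838, 5720, 4893 and 5354 against 2209, 2602, 2966 and 2457 (-1.09, SE 0.12). Fatty acid oxidation had 15 of 29 lower and 0 higher (median -0.44), led by Acadvl, which starts the oxidation of very long chains (-0.85, SE 0.10). Coagulation and complement had 21 of 32 lower and 1 higher (median -0.44), with C9 at -1.05 (SE 0.18) and Cfb at -0.98 (SE 0.13). Urea cycle and amino acid catabolism had 24 of 41 lower and 2 higher (median -0.38), and plasma proteins 17 of 33 lower and 0 higher (median -0.40), with ceruloplasmin, Cp, at -1.15 (SE 0.20). Gluconeogenesis and glycolysis had 9 of 20 lower and 0 higher (median -0.39), and lysosomal hydrolases 10 of 30 and 0 (median -0.37).

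The share of genes called differed with brightness. In the brightest decile of tested genes 30.9% were lower and 13.5% higher, with a median of -0.13, whereas in the next decile 16.1% were lower and 19.2% higher, with a median of 0.10. Polysome arrays had a mean signal of 262 to 270 and unfractionated arrays 289 to 298, at the same trimmed mean. After quantile normalization the median of the brightest decile was 0.04. Under it the median of ribosomal proteins was -0.54, that of coagulation and complement -0.30, that of fatty acid oxidation -0.27, that of the proteasome -0.22 and that of plasma proteins -0.18. Over 11 alternatives, quantile normalization among them, the median of cytochrome P450 mRNAs lay between -0.47 and -0.38. That of heat shock mRNAs lay between -0.68 and -0.51. The part of brightness in the list shifts was not otherwise tested. Direction was not settled for apolipoproteins (median -0.17, and 0.01 after quantile normalization), for the methionine cycle and glutathione (-0.10, and 0.12) or for hepatocyte markers (-0.20, and 0.01).

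**Figure D2:**
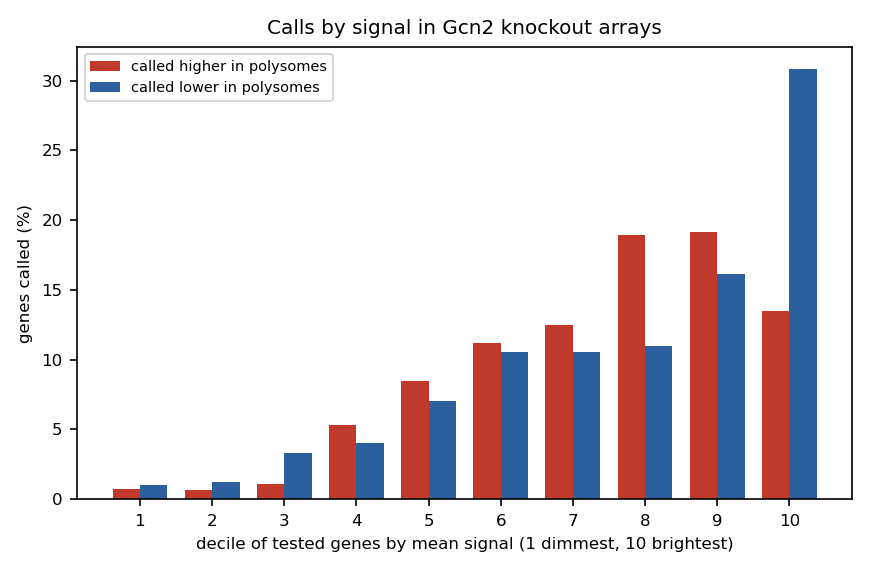
Share of genes (vertical axis, percent) called higher (red) or lower (blue) in polysome RNA of knockout livers, by decile of tested genes in order of mean signal. The brightest decile has 30.9% lower and 13.5% higher, and the dimmest 1.01% lower and 0.733% higher.

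On the rich side, the 12 largest excesses were led by Mfhas1, a leucine-rich signalling protein. It gave 234, 335, 210 and 155 in unfractionated and 873, 776, 660 and 414 in polysome RNA (1.48, SE 0.18, adjusted p 0.000372), with a second probe set at 1.37. Onecut2, a liver transcription factor, gave 125, 144, 132 and 100 against 361, 470, 318 and 278 (1.39, SE 0.15), and all 3 probe sets lay between 1.13 and 1.39. Tnrc6b, a partner of Argonaute in silencing by miRNAs, gave 105, 66.3, 92.5 and 83.9 against 231, 295, 247 and 139 (1.22, SE 0.21).

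Kmt2d, a histone H3 lysine methyltransferase, gave 32.4, 27.2, 56.3 and 44.7 against 118, 212, 166 and 76.2 (1.45, SE 0.28). As the mean of its probe sets it stood at 0.65. The polysome arrays of all 4 genes lay above the unfractionated arrays, as the rule that chose them required. The lowest polysome array was in each case replicate 2 without methionine. Zbtb44 (1.37, SE 0.27), Bach2 (1.36, SE 0.17) and Lpp (1.26, SE 0.20) were also in this set. However, a second probe set of Zbtb44 gave 0.35, and probe sets of Bach2 ran from -0.59 to 1.36 and those of Lpp from 0.14 to 1.26. Kmt2d, Gm34344, Rd3, 1110002L01Rik, Gm13889 and Cables1 had unfractionated signals of 58 or less in each array, where the added 16 weighs most.

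Very long proteins, a list of motors, giant scaffolds and large enzymes, had a median of 0.20 (0.04 without unfractionated replicate 1 with methionine). Of 35 tested, 7 were higher (20%) and 0 lower, beside 9.14% and 9.56% of all genes. Besides Kmt2d these included Plec, plectin (1.03, SE 0.24), Akap13, a kinase anchor (0.87, SE 0.15), and Kif13b, a kinesin (0.66, SE 0.21), whose second probe set gave -0.64. Hepatocyte transcription factors and nuclear receptors had 7 of 31 higher (22.6%) and 2 lower (6.45%). Their median was 0.21, and 0.09 without unfractionated replicate 2 lacking methionine. The oxysterol receptor Nr1h3 stood at 0.83 (SE 0.14), the retinoid partner Rxra at 0.81 (SE 0.17) and Prox1 at 0.75 (SE 0.22), while Nfe2l2 (NRF2) was lower at -0.76 (SE 0.21). Zinc finger genes lay close to the background, with 11 of 152 higher (7.24%) and 7 lower (4.61%), and a median of 0.11.

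Small cytosolic and ubiquitin-like proteins had 18 of 44 higher, 2 lower and 24 not called, with a median of 0.40, beside 9.14% higher and 9.56% lower of all genes. Ufm1, a ubiquitin-like modifier, gave 527, 641, 655 and 619 in unfractionated and 785, 1157, 972 and 1298 in polysome RNA (0.75, SE 0.15). Lsm2, of the ring that binds U6 RNA, stood at 0.69 (SE 0.14) and the calcium-binding S100a1 at 0.68 (SE 0.14). Tmsb10, an actin-binding peptide, was the largest exception at -1.29 (SE 0.14).

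Mitochondrial ribosomal proteins contrasted with the cytosolic ones. Of 74 tested, 21 were higher and 2 lower (median 0.22). Mrpl28 gave 1242, 1172, 972 and 971 against 1648, 1486, 1835 and 1870 (0.65, SE 0.13), Mrps33 stood at 0.62 (SE 0.15) and Mrpl10 at 0.56 (SE 0.13). Mrps31 was an exception at -1.08 (SE 0.16). Nuclear-encoded subunits of the respiratory chain were split, with 10 of 71 higher and 10 lower (median 0.09, and 0.38 after quantile normalization). The falls named by size were Uqcrc2 (-0.90, SE 0.13), Ndufs1 (-0.85, SE 0.14), Ndufa10 (-0.83, SE 0.09) and Ndufv1 (-0.65, SE 0.11), which are core or large accessory subunits.

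mRNAs of the ER translocon, signal peptidase and oligosaccharyltransferase had 8 of 28 higher (28.6%) and 4 lower (14.3%), with a median of 0.04. The shares over all genes were 9.14% and 9.56%. Dad1, of the oligosaccharyltransferase, gave 1453, 1637, 1613 and 1447 against 2802, 2371, 2684 and 2729 (0.78, SE 0.11), and Spcs1, of signal peptidase, stood at 0.78 (SE 0.14). The translocon partners Sec62 (-1.07, SE 0.15) and Sec63 (-0.93, SE 0.13) were lower; the probe sets of Sec62 ranged from -1.07 to -0.29. In the mTORC1 pathway 5 of 28 were higher (17.9%) and 1 lower (3.57%), with a median of 0.25. The Ragulator subunits Lamtor3 (0.85, SE 0.15) and Lamtor4 (0.65, SE 0.12) and the GTPase Rheb (0.61, SE 0.11) were higher and Lamtor1 lower (-0.56, SE 0.13).

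mRNAs with upstream reading frames that respond to eIF2 phosphorylation had 5 of 16 higher (31.25%) and 1 lower (6.25%), with a median of 0.40. Ppp1r15b, which directs a phosphatase to eIF2, gave 440, 416, 350 and 358 in unfractionated and 695, 695, 648 and 575 in polysome RNA (0.72, SE 0.12). Tmem50b stood at 0.80 (SE 0.20), Bace1, the beta-secretase, at 0.70 (SE 0.20, with a lowest probe set at -0.04) and the tRNA synthetase gene Eprs at -0.76 (SE 0.16). Atf4, the best-known of these genes, gave 1462, 1475, 2132 and 2127 against 1235, 1848, 2236 and 2350 (0.07, SE 0.13), and the fractions overlapped. Asns, an ATF4 target that makes asparagine, stood at -0.20 (SE 0.24) and was not called. ATF4 targets as a list did not exceed the background, with 4.17% of 24 higher and 8.33% lower, beside 9.14% and 9.56% of all genes. The 1 higher member was Cebpg (0.65, SE 0.13), and the 2 lower were Phgdh (-1.07, SE 0.30) and Slc3a2 (-0.56, SE 0.16). The reference genes Alb (-0.22, SE 0.09) and Actb (-0.23, SE 0.09, and -0.83 by its other bright probe set) and the targeted gene Eif2ak4 (0.15, SE 0.27) were not called.

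**Figure D3:**
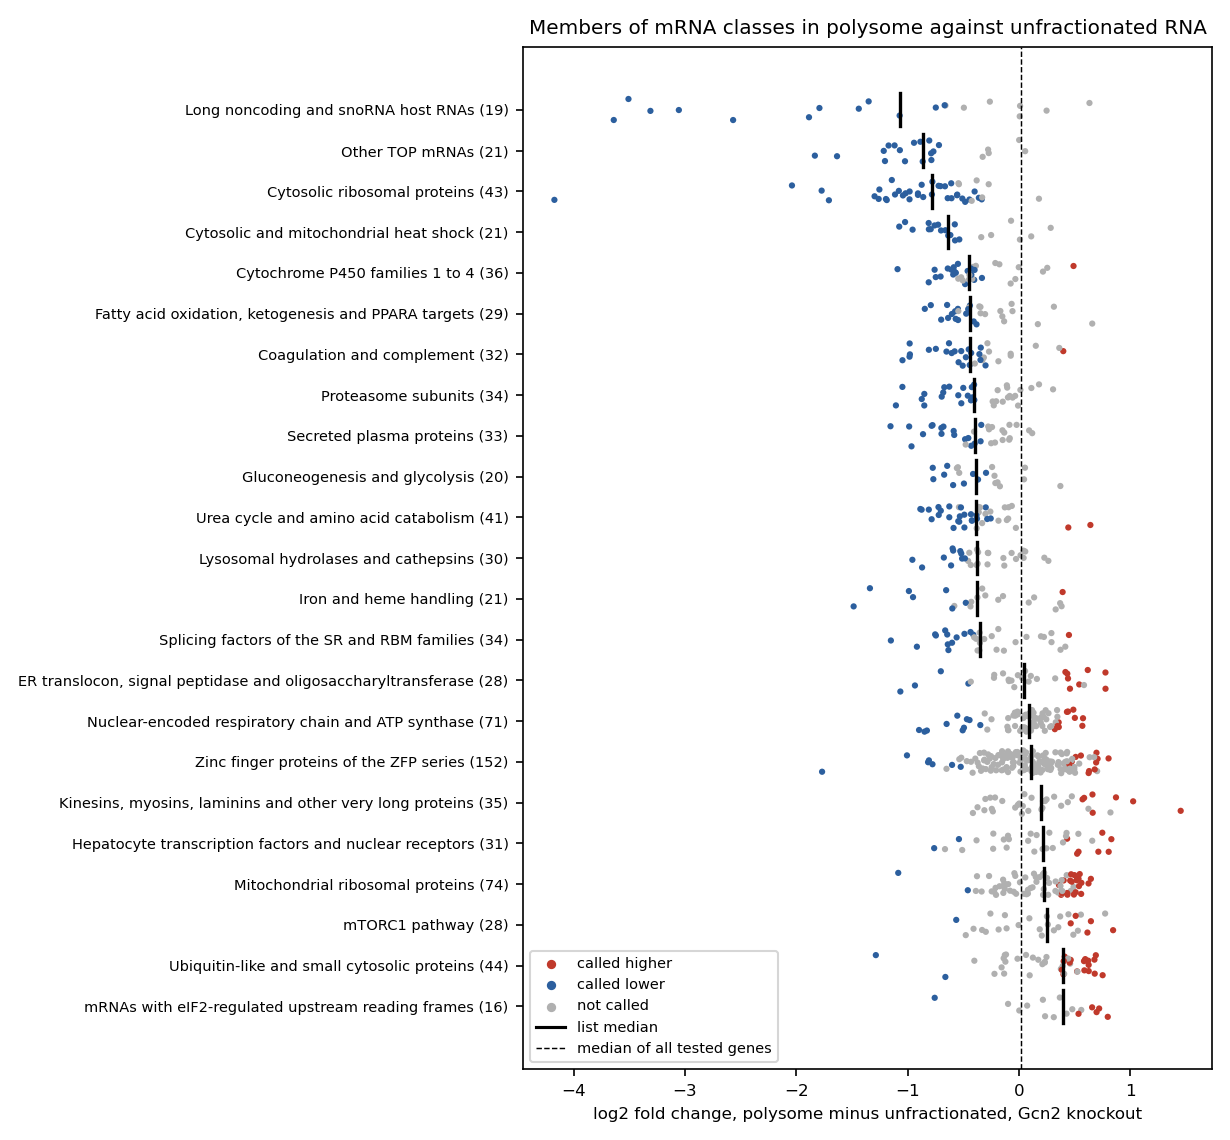
Fold changes (horizontal axis, log2, polysome minus unfractionated) of the members of 23 gene lists with at least 15 tested members: the 14 with the lowest and the 9 with the highest medians, with the number tested in brackets. Dots are genes (blue called lower, red called higher, grey not called), black bars are list medians, and the dashed line is the median of all tested genes, 0.02; ribosomal protein, TOP and noncoding lists lie farthest to the left.

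Markers of other liver cells differed by type. Kupffer cell markers had 5 of 12 tested members lower and 0 higher (median -0.55), and their summed signal over 14 genes was 1018 to 1745 in polysome and 1702 to 2400 in unfractionated arrays; Marco and Timd4 had means under 25. Cd68 stood at -0.85 (SE 0.21) and Vsig4 at -0.69 (SE 0.13). Stellate markers had 3 of 8 lower (median -0.38; sums of 1545 to 2142 against 1907 to 2861; Des, Col1a1 and Pdgfrb were under 25), and endothelial markers 1 of 10 (median -0.07), near the background. Neither of the 2 tested cholangiocyte markers nor any of the 3 tested lymphocyte and neutrophil markers was called (medians 0.04 and 0.46). The 1 tested erythroid marker, Alas2, was lower (-0.87, SE 0.13). In a marker's level in whole liver, fewer cells of a type and less RNA per cell cannot be told apart; both fractions came from whole livers, and the part of these cells in the other results was not tested.

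With and without methionine, 71.9% of the 10916 tested genes had a fold change of the same sign, and fold changes in the media correlated at 0.589 across them. The 2042 called genes all had the same sign in both media, which their choice from the mean over both largely fixes. Within a medium only 2 arrays face 2, and the spread was estimated from all 8 knockout arrays. On that basis 484 genes (4.43%) were called with methionine, 191 higher (1.75%) and 293 lower (2.68%). Without methionine 142 (1.3%) were called, 25 higher (0.229%) and 117 lower (1.07%). Fits to the arrays of 1 medium alone called 398 genes with and 27 without methionine. The difference between the media was tested directly: limma called 0 genes, 349 had an unadjusted p under 0.05, and with the pool as a block the count was also 0. The genes with the smallest p were H1f4, Kptn and Slc10a2 in one direction and Krt78, Pnpla7 and Otud7b in the other (adjusted p 1.0 each). The ribosomal protein median was -0.90 with and -0.72 without methionine, and that of the upstream-reading-frame list 0.50 and 0.27.

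The same fraction difference in wild-type livers used none of these arrays. It called 1514 genes (13.9%), 794 higher (7.27%) and 720 lower (6.6%). Fold changes of the genotypes correlated at 0.660 across 10916 genes. Of the 2042 knockout calls, 1951 had the same sign in wild-type livers. The share of same signs over all tested genes was not counted, so no background stands beside that number. In wild-type livers 838 were called the same way, which is 41% of the knockout and 55.4% of the wild-type calls. Pigp, of the first step of GPI anchor synthesis, was the 1 gene called in opposite directions (0.49, SE 0.15 in knockout and -0.58, SE 0.16 in wild-type); it is named because the count was 1.

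The difference between genotypes was then tested itself, knockout minus wild-type. Without a block for the pool, limma called 0 of 10916 genes, with 1017 (9.32%) at an unadjusted p under 0.05 and a smallest adjusted p of 0.118. The smallest p belonged to Rpl22l1 (1.18, SE 0.19), Brk1 (0.95, SE 0.17) and Rps18 (0.84, SE 0.15) on the higher side, and to Ppp4r3b (-0.82, SE 0.17), Ndufa10 (-0.63, SE 0.14) and Lap3 (-0.68, SE 0.16) on the lower. With the pool as a block, 76 genes (0.696%) were called, 66 higher and 10 lower in the knockout. Of the 66, all had a negative fold change in wild-type livers. They held 14 of the 43 tested ribosomal proteins; for example Rps19 stood at -1.71 in knockout and -2.62 in wild-type livers.

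That count varied with the arrays used. Leaving out 1 pair of polysome arrays at a time, the blocked test called 2 genes without the wild-type pair lacking methionine, 417 without the wild-type pair with methionine, 1 without the knockout pair lacking methionine and 66 without the knockout pair with methionine. Without the wild-type polysome arrays lacking methionine, the 2 genes were Jund, a subunit of AP-1 (1.62, SE 0.18), and the chemokine gene Cxcl1 (1.76, SE 0.21), both among the 76. In knockout arrays Jund gave 2354, 1753, 1779 and 1516 in unfractionated and 3392, 2919, 3212 and 2734 in polysome RNA, but its second probe set had a knockout fold change of -0.18. In Cxcl1, 1 knockout pool with methionine gave 350 in unfractionated and 196 in polysome RNA, where the other 3 pools gave 2462 to 3057 and 1204 to 1691. The gap between the genotypes' list medians was wider without methionine for some lists and narrower for others. Ribosomal proteins stood at -1.51 in wild-type and -0.72 in knockout livers there, and at -1.09 and -0.90 with methionine. Small cytosolic proteins stood at -0.23 and 0.37 without and at 0.08 and 0.34 with methionine. The upstream-reading-frame list stood at 0.06 in wild-type and 0.27 in knockout livers without and at -0.05 and 0.50 with methionine, and noncoding RNAs at -1.33 and -1.14 without and at -1.62 and -0.99 with it. At an unadjusted p under 0.05, 25 of 43 ribosomal and 24 of 44 small cytosolic proteins differed between genotypes, beside 9.32% of all genes. Other lists exceeded that share too, among them the respiratory chain (27 of 71), the ER translocon list (9 of 28) and the proteasome (10 of 34). So did the mTORC1 pathway (8 of 28) and fatty acid oxidation (7 of 29), while zinc finger genes had 3.95%. Knockout minus wild-type was positive for 38 of 43 ribosomal and 1 of 34 proteasome genes. Whether the genotype difference itself changed with medium was not tested.

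**Figure D4:**
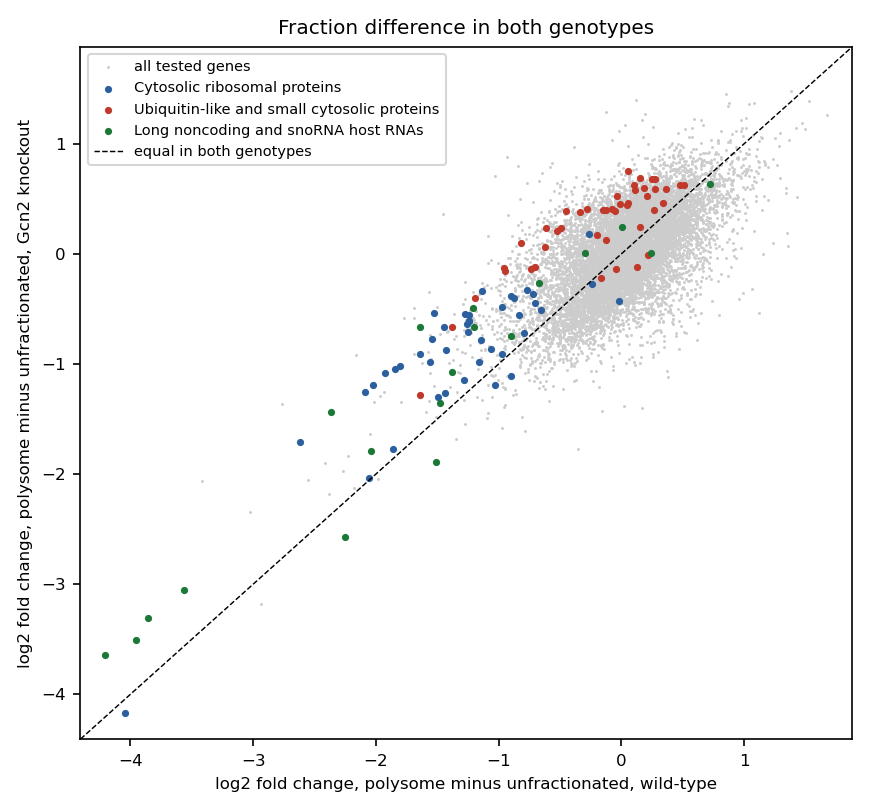
Fold change (log2, polysome minus unfractionated) in wild-type (horizontal) and knockout livers (vertical) for 10916 tested genes (grey), with cytosolic ribosomal proteins in blue, small cytosolic proteins in red and noncoding and snoRNA host RNAs in green; the dashed line marks equal values. Genes spread along the line (correlation 0.660), and 38 of 43 ribosomal proteins lie above it.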

How the data were processed

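The deposited table gives, per the labels, Affymetrix intensity values for 45101 probe sets, whose signal algorithm was not given in the sources used here. Deposited linear intensities have a mean of 150 in each array after trimming 2% at each end, and were used as deposited. Of the probe sets, 34945 carried 1 gene symbol; the brightest over all 16 arrays stood for each of 18193 genes, and the dimmest 40% were not tested. Tests used limma 3.58.1 in R 4.3.3 (lmFit, eBayes with trend, two-sided) on log2(signal + 16), checked on simulated data. The number of arrays limits the precision. Unfractionated and polysome arrays with the same number shared deviations (correlations 0.328 and 0.186 in knockout, 0.239 and 0.229 in wild-type), so same-numbered arrays may share a pool, which is inferred from the data and not from the labels; the main fit has no pool term, and fits with the pool as a block were alternatives. Alternatives changed the scaling, pseudocount, filter, probe set rule, block and arrays used. Named genes were the 12 largest called changes each way without overlap of the arrays, up to 4 called members of each list (5 where 5 or fewer were called), Eif2ak4, Atf4, Asns, Alb, Actb and Gapdh; the last had no probe set of its own. Genes named for the genotype difference with a pool block, and exceptions stated as such, were chosen after their values were seen. Members and lists were chosen with earlier results of these data known. Promoter sequences are from RefSeq, GRCm38.p6. Protein length was not used here. A deposited table of z ratios was not used.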

Additional observations from a re-analysis of the deposited data

Results flagged for a closer look

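Among 58 sets of 4 arrays (29 named genes in each fraction), 5 had 1 array far from the other 3, where chance flags about 1 in 20. In polysome RNA Bach2 had 146 in replicate 2 without methionine and 228 to 243 in the others. 2410006H16Rik had 16.9 in replicate 1 with methionine and 45.6 to 49.2 in the others. Eif2ak4 had 22.3 in replicate 2 with methionine in polysome RNA (49.5 to 52.9 in the others) and 21.2 in replicate 2 without methionine in unfractionated RNA (41.8 to 44 in the others). Asns had 92.4 in polysome RNA of replicate 2 without methionine, beside 39.2 to 43.8.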

How the results depend on the processing

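Signals came from 2 pools per group, and dim genes near the added 16 carry the least precision. The 2042 calls (998 higher, 1044 lower) became 844 (437 and 407) after scaling on array medians, 835 of them shared. They became 1351 (622 higher) with the mean of a gene's probe sets, 398 (140 and 258) in arrays with methionine alone and 27 (0 and 27) in arrays without it. Without the variance trend 635 were higher. Leaving out 1 array gave 1189 to 2078 calls (567 to 988 higher, 622 to 1090 lower); the lowest were without unfractionated replicate 1 with methionine (1189), and without polysome replicate 2 with methionine there were 1306 (576 higher). Higher calls were also 602 without unfractionated replicate 2 lacking methionine and 623 without polysome replicate 1 with methionine. The pool as a replicate block gave 2762 calls. Wild-type calls (1514; 794 and 720) became 989 (259 higher, 730 lower) on array medians and 728 (283 and 445) without the polysome arrays lacking methionine; 521 were higher without the trend. Leaving out 1 wild-type array gave 818 to 1507 (371 to 783 higher, 447 to 724 lower). The lowest was without unfractionated replicate 2 with methionine; without polysome replicate 1 with methionine there were 856 and without polysome replicate 2 lacking it 940. The genotype difference went from 0 to 76 calls with the replicate block and, with that block and 1 pair of polysome arrays left out, to 2 or 417 (wild-type pair without or with methionine) and 1 or 66 (knockout pair without or with methionine); leaving out 1 array gave 0 to 10, with 10 without wild-type polysome replicate 2 with methionine and 1 without replicate 1. The blocked fit ended no other call. The causes were not tested. Rd3, Bach2, Gm13889 and Lpp were not called with the mean of probe sets (adjusted p 0.0845, 0.0575, 0.0795 and 0.117), nor Cables1 without polysome replicate 2 lacking methionine (0.0667). Of the other genes described, Eif3h, Eif3m, Bace1, Phgdh, Cebpg, Alas1, Jund, Rxra, Nfe2l2, Prox1, Akap13 and Kif13b also lost their call with the mean of probe sets (adjusted p 0.0533 for Eif3m to 0.988 for Kif13b). Some described genes also lost their call in fits that left out 1 of the 8 arrays. Kif13b kept it in 1 of these 8 fits, Phgdh, Slc3a2, Gpx3 and Prox1 in 2, and Eif3c, Nfe2l2 and Bace1 in 3. Dio1 kept it in 4, Tmem50b in 5, Alas1 and Cd68 in 6, and Plec and Mrps33 in 7. None of the 173 genes selected by the naming rule that passed the test turned its direction under the alternatives run. Their choice as called genes in these same arrays largely fixes that. Single dimmer probe sets were not run as an alternative, and some of those given above had the opposite sign. With the mean of probe sets the list medians were -0.23 for the proteasome, -0.19 for lysosomal hydrolases and 0.23 for upstream reading frames. Of those that did not pass, Alb was 0.11 after cyclic loess and Actb 0.03 after quantile normalization, whereas with the mean of probe sets Actb was called (-0.53, adjusted p 0.0126). The protein length bins were not run.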
